A study of Mus musculus with 2 samples.

Results

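The Mir378 family of microRNA genes was examined in skeletal muscle of newborn mice. Short RNAs from total RNA of 2 pups were sequenced and counted over 1973 listed miRNA genes. Both pups were of strain B6NCrl, at postnatal day 0 and from 1 pregnancy, and each gave 1 library, named replicate 1 (pup 1) and replicate 2 (pup 2). No treatment, altered allele or second tissue was given, so the libraries form 1 group and no contrast between conditions could be tested. Of the 1973 listed rows, 4 were taken as the family: Mir378b, Mir378c and Mir378d, read on their own strand, and the row Gm25301, read on the strand opposite to it. Mir378a itself was not among the listed genes, and it is annotated on that opposite strand. The first 3 rows were chosen by name, whereas the row and the strand standing for Mir378a were chosen by the measured counts there, so the strand and the level at that place are given as a description.

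A microRNA gene is transcribed into a hairpin, from which a mature strand is cut and loaded into Argonaute. Bases 2 to 8 of the mature strand, the seed, set most of the pairing with target messenger RNAs. Mir378a sits in an intron of Ppargc1b, the gene of PGC-1β, a transcriptional coactivator of mitochondrial and fatty acid oxidation genes, and its miRNA is known from studies of energy metabolism and muscle differentiation. The other family members were named for the likeness of their mature sequences.

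Mature sequences of 3 family members, Mir378b, Mir378c and Mir378d, were taken from a table of RefSeq miRNAs (build GRCm38.p6), and that of Mir378a is not used here. They are shown, 5′ to 3′ with the seed in capitals, because the family is defined by them and because reads that fit several places were left out of the gene counts.
Mir378b: cUGGACUUggagucagaaga
Mir378c: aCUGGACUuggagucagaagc
Mir378d: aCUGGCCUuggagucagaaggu
The lengths were 20, 21 and 22 bases. Mir378b and Mir378c had the closest sequences. With the first base of Mir378b facing base 2 of Mir378c, 19 of 20 bases were the same, the difference being A20C, counted from the 5′ end of Mir378b. Mir378b began 1 base later, so its seed was read 1 base further along the same letters. Mir378d differed from Mir378c at A6C and C21G, counted from the 5′ end of Mir378c, over 21 compared bases. The A6C difference lies in the seed, so the 3 members had 3 different seeds. All 3 shared the 14-base run CUUGGAGUCAGAAG, which among the hairpins of 1005 genes in the RefSeq table used here was found in these 3. Mir378a has no entry in that table, so whether it holds the run was not examined.

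The hairpins of the same 3 members are shown with the mature stretch in capitals, because they differ in where that stretch lies.
Mir378b: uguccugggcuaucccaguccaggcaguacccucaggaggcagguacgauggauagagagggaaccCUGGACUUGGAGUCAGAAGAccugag
Mir378c: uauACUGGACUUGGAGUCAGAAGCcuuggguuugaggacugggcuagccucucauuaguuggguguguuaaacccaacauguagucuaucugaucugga
Mir378d: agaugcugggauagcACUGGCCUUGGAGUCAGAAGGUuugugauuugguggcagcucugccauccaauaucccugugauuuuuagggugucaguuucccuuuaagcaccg
In Mir378b the mature strand was on the 3′ arm, at bases 67 to 86 of 92. In Mir378c it was on the 5′ arm, at bases 4 to 24 of 99, and in Mir378d also on the 5′ side, at bases 16 to 37 of 110. Minimum free energy structures predicted with RNAfold had -31.1 kcal/mol for Mir378b, -27.0 for Mir378c and -35.0 for Mir378d. In the predicted structures of Mir378b and Mir378c, 15 mature bases were paired, all towards the other arm. In that of Mir378d, 13 mature bases were paired, 8 towards later and 5 towards earlier bases, so the mature stretch did not lie along 1 side of a single stem.

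The 4 places differ in their genomic surroundings (build mm10, GENCODE M21). Mir378b (chromosome 11, 88352773 to 88352864, plus strand) lies in an intron of Msi2, an RNA-binding protein gene on the minus strand. Mir378c (chromosome 14, 46954830 to 46954928, minus strand) lies in an intron of Samd4, whose protein represses translation of bound messenger RNAs and whose gene is on the plus strand. Both are thus antisense to the gene around them. Mir378d (chromosome 10, 126710282 to 126710391, minus strand) overlaps no annotated gene. With genes of the annotation type TEC left out, the nearest is the long non-coding RNA gene Gm47966 on the same strand, 3614 bases away. Mir378a (chromosome 18, 61397835 to 61397900, minus strand) is the only one of the 4 annotated in the sense of its host, an intron of Ppargc1b. The listed row Gm25301 (61397813 to 61397925, plus strand) spans all of Mir378a from the other strand.

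Replicate 1 held 3754895 own-strand counts over all listed genes and replicate 2 held 5133949, and levels are given as CPM, counts per 1000000 of these totals. Multimapping reads made up 30.2% of the reads of replicate 1 and 29.9% of those of replicate 2, and they are credited to no gene. Levels of the family and of all other genes are therefore those of reads that fit 1 place. The split between the near-identical members of the family is uncertain. All 8 genes of a skeletal muscle marker list had counts, beside 671 of the 1973 listed genes on either strand. They summed to 81335 and 89353 CPM, nearly all of it Mir206, and the lowest, Mir133a-2, had 4 and 6 counts. Having counts does not by itself mark muscle, since markers of other tissues had them too. That muscle RNA was present is thus read from the level of Mir206, 79447 and 87198 CPM. Markers of epithelium and skin (7 of 7 genes detected) summed to 5688 CPM in replicate 1 and 230 in replicate 2, and the cartilage marker Mir140 had 6539 and 966 CPM. Replicate 1 thus held more of both, and the part of these tissues in any ratio between the pups was not tested. In bulk tissue, fewer cells of a type and less RNA per cell cannot be told apart.

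Nearly all family counts lay at the place of Mir378a. The Gm25301 row had 199958 opposite-strand counts in replicate 1 and 318661 in replicate 2, which were 53253 CPM (95% Clopper-Pearson interval 53026 to 53480) and 62069 CPM (61861 to 62278). Both libraries were of the same order, and their mean was 57661 ± 6234 CPM (SD, n = 2). Mir378d followed far below with 49 counts (13.0 CPM, 9.65 to 17.3) in replicate 1 and 146 (28.4 CPM, 24.0 to 33.4) in replicate 2, a mean of 20.7 ± 10.9 CPM. Mir378c had 69 counts (18.4 CPM, 14.3 to 23.3) and 102 (19.9 CPM, 16.2 to 24.1), a mean of 19.1 ± 1.05 CPM. Mir378c and Mir378d changed places between the pups: Mir378c had more counts in replicate 1 and Mir378d in replicate 2, so their order in this tissue was not resolved. Mir378b was the lowest in both pups, with 12 counts (3.20 CPM, 1.65 to 5.58) and 26 (5.06 CPM, 3.31 to 7.42), a mean of 4.13 ± 1.32 CPM. All 3 stood above the level that 3 counts give, 0.799 CPM in replicate 1 and 0.584 in replicate 2. Intervals cover counting error only, because each is computed from the counts of 1 library. The reads carry no molecular identifiers in these tables, so repeated reads of 1 molecule could not be set apart.

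**Figure D1:**
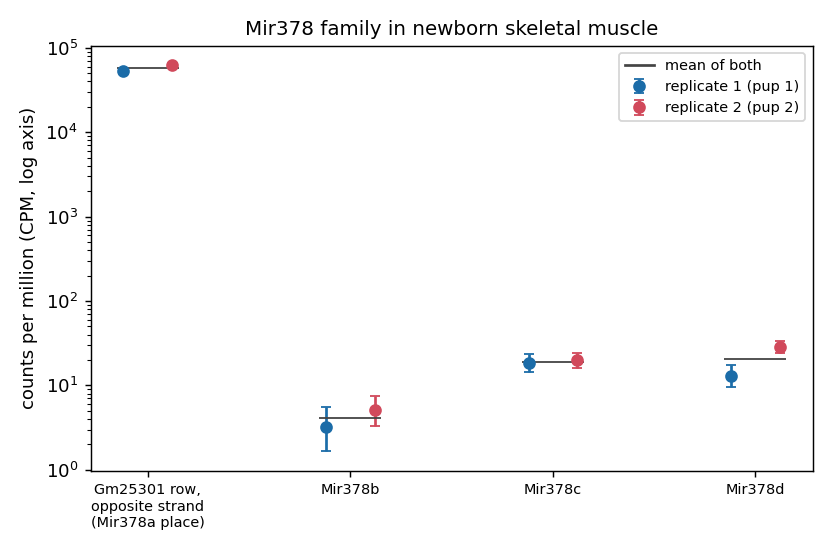
Points are CPM of each family member in replicate 1 and replicate 2 on a log axis, bars are 95% counting intervals and lines are the means of both. The place of Mir378a lies at 53253 and 62069 CPM, and the highest value of the other 3 members is 28.4 CPM.

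Together the 4 rows held 200088 counts in replicate 1 and 318935 in replicate 2. Set against the own-strand total these were 5.33% and 6.21%, and with the counts at the Mir378a place added to that total they were 5.06% (5.04 to 5.08) and 5.85% (5.83 to 5.87). Within the family, the place of Mir378a held 99.9% of counts in both libraries. The other 3 members together had 130 and 274 counts, or 34.6 and 53.4 CPM. Counts at the Mir378a place were 2898 times those of Mir378c in replicate 1 and 3124 times in replicate 2. For Mir378d the same ratio was 4081 and 2183, and for Mir378b it was 16663 and 12256.

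Each member had counts on 1 strand only, and for the Gm25301 row that strand was chosen by these counts. The Gm25301 row had 0 own-strand counts in both libraries, against 199958 and 318661 on the opposite strand, which allows an own-strand share of up to 0.00150% and 0.000941%. Mir378b, Mir378c and Mir378d had 0 opposite-strand counts in both. That was usual, since 61 of the 671 genes with counts on either strand had any on the opposite strand. Their low depth set wider limits, since 3 counts would be 25.0% of the Mir378b counts in replicate 1 and 2.05% of the Mir378d counts in replicate 2. The counts at the Mir378a place were 48.1% of all opposite-strand counts in each library. They were also 37.0% and 38.0% of the reads that the own-strand column lists as lying in no gene, and 2.80% and 3.20% of all reads.

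A further 9 listed rows had at least 100 CPM on their opposite strand, and each lies across an annotated miRNA gene of the other strand. Their means ran from 145 CPM at the place of Mirlet7f-1 to 22045 CPM at that of Mir376a, a member of the imprinted Dlk1-Dio3 cluster. The place of Mir378a exceeded that of Mir376a by 2.67-fold in replicate 1 and by 2.57-fold in replicate 2. At 9 of the 10 rows neither library had an own-strand count, the exception being Mir299b with 22 and 33. Among rows with at least 100 CPM there, the pattern of the Gm25301 row, with counts on the opposite strand only, was thus shared by 8 others at lower levels. At any level, 26 of the 671 genes with counts on either strand had most of them on the opposite strand.

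**Figure D2:**
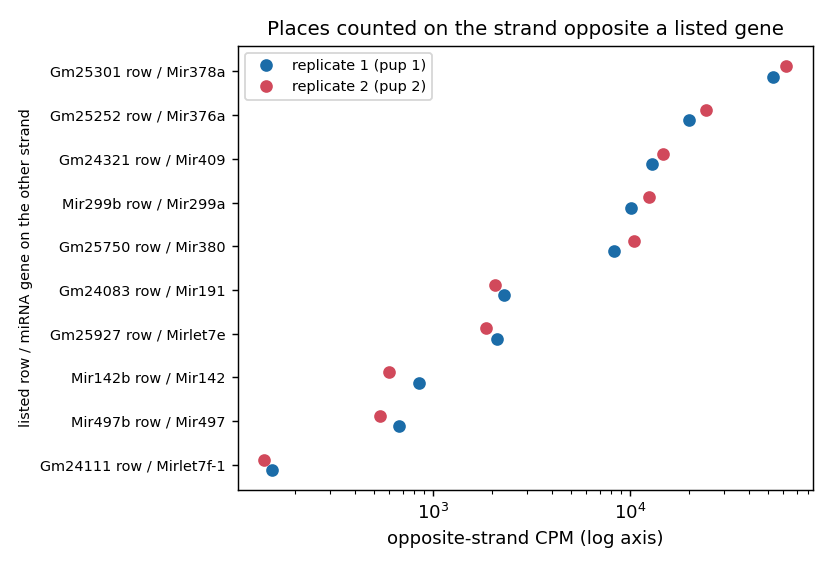
Points are opposite-strand CPM on a log axis, for replicate 1 and replicate 2, at the 10 listed rows with a mean of at least 100 CPM there, each labelled with the miRNA gene annotated on the other strand. The place of Mir378a is the highest in both libraries, and the next, that of Mir376a, has a mean of 22045 CPM.

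With those 10 rows counted on their opposite strand and all others on their own, 662 places had counts. Among these places, counted from reads that fit 1 place, that of Mir378a was at rank 3 by mean CPM. It was at rank 4 in replicate 1 and at rank 3 in replicate 2. A gene whose reads fit several places stands too low in this order. The rank is thus not one among all miRNAs of the tissue. Mir206, a miRNA of skeletal muscle, was first with 79447 and 87198 CPM, above the place of Mir378a without overlap. Counts at the Mir378a place were 67.0% of those of Mir206 in replicate 1 and 71.2% in replicate 2, a ratio into which no scaling enters. Its next neighbours in the order were genes of the Dlk1-Dio3 cluster. Mir487b, just above, had 54546 and 62984 CPM, Mir431, just below, had 49005 and 61157, and Mir127 had 50994 and 56046. Over the 2 pups, the ranges of all 3 overlapped with that at the Mir378a place. Within each library, though, Mir487b lay above that place and Mir431 and Mir127 lay below it. Mir335, at rank 7 by mean CPM, had 212934 counts in replicate 1, more than the Mir378a place (199958). In replicate 2 it had 235054, fewer than that place (318661). With 2 pups, ranks 2 to 5 are given as a description.

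The other members stood in the lower part of the order. Mir378d was at rank 246, Mir378c at 249 and Mir378b at 304. Around Mir378d and Mir378c, the neighbours Mir103-2 (22.3 ± 8.72 CPM), Mir190b (21.0 ± 4.46), Mir7-1 (20.2 ± 3.47), Mir452 (19.1 ± 5.31), Mir3074-1 (18.0 ± 2.37) and Mir511 (17.9 ± 9.66) all overlapped with them. Around Mir378b, Mir184, Mir3100, Mir19b-1 and Mir384 had means between 4.02 and 4.48 CPM and also overlapped. Ranks at these levels were therefore not resolved by 2 libraries.

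**Figure D3:**
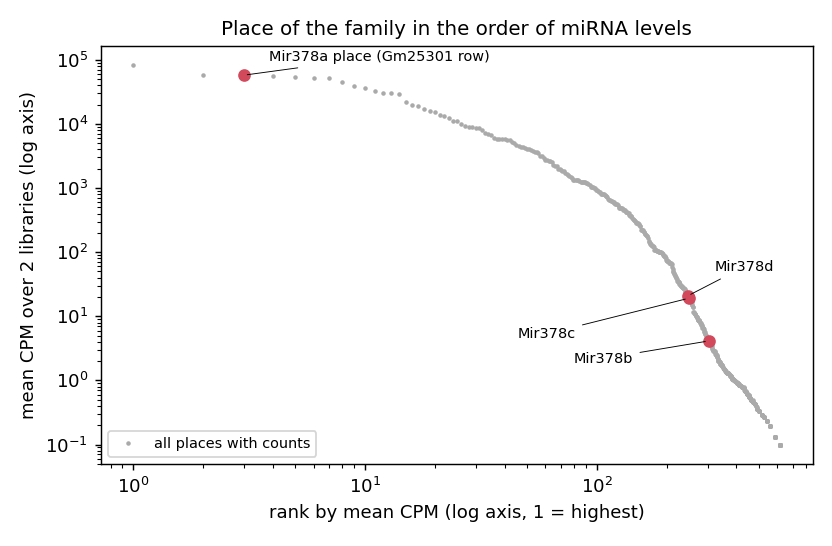
Grey points are the mean CPM of every place with counts against its rank, both on log axes, and red points are the 4 family members. The place of Mir378a is at rank 3, and Mir378d, Mir378c and Mir378b are at ranks 246, 249 and 304. Multimapping reads are left out of this order.

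The pups were then compared member by member as log2 of replicate 2 over replicate 1, with TMM scaling from edgeR and 0.5 added to each count. A ratio compares 2 libraries and not conditions, so it carries a counting interval and no p-value. All 4 members had a higher scaled value in replicate 2. The background was 50.8% of the 374 genes with a total of at least 10 counts. It was 39.3% under total-count scaling, where all 4 members still had the higher value in replicate 2. The members' median was 0.56, beside 0.0068 for all 374 genes. The 8 skeletal muscle markers were all higher in replicate 2 too, at a median of 0.31, whereas 0 of the 7 epithelial markers were. Of the other marker lists, liver (Mir122, 0.17) was higher there. Cartilage (Mir140, -2.63), endothelium (Mir126a, -0.026) and both brown fat markers with at least 10 counts were lower. Red blood (Mir144 0.34, Mir451a -0.57) and white blood (Mir150 0.00092, Mir223 -0.46) were split. The part of muscle content in the members' ratios was not tested.

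The place of Mir378a had a log2 ratio of 0.35 (95% interval 0.34 to 0.36), a 1.28-fold higher value in replicate 2. The interval is narrow because of the depth there and leaves out differences between animals. Among the 18 genes within 4-fold of its level, 2 had a higher ratio, and the median of the 18 was 0.085. The place of Mir376a, at 0.40, was higher too but is not among these 18. With opposite-strand rows included, 19 places lay within 4-fold of the level at the Mir378a place. The closest to it in ratio were Mir487b (0.34), Mir411 (0.33) and the place of Mir376a (0.40), all of the Dlk1-Dio3 cluster. How many of the 19 belong to that cluster was not counted, so nothing is read from this. Likeness over 2 libraries rests on 1 ratio per gene and is given as a description.

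Mir378d was the 1 member past 2-fold, with a log2 ratio of 1.25 (0.78 to 1.75), from 49 counts in replicate 1 to 146 in replicate 2. At least 2-fold higher values in replicate 2 were found for 7 of the 374 genes (1.87%), and in replicate 1 for 24 (6.42%), none of them a member. The other 6 genes past 2-fold in replicate 2 had 10 to 39 counts in total, so that among the 283 genes with at least 50 counts Mir378d was the 1 gene higher in replicate 2 by that margin. Of the 98 genes within 4-fold of its level, 0 had a higher ratio and 4 lay further from equality, in the other direction. Mir544 (0.94), Mir6945 (0.87) and Mir1247 (0.83) came closest to it among the 97 places at its level with opposite-strand rows counted as above.

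Mir378b and Mir378c did not differ between the pups beyond counting error. For Mir378b the log2 ratio was 0.76, with an interval from -0.24 to 1.92 that a count of 12 in replicate 1 leaves wide. For Mir378c it was 0.24 (-0.21 to 0.71). These intervals include both equality and the ratio at the Mir378a place.

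**Figure D4:**
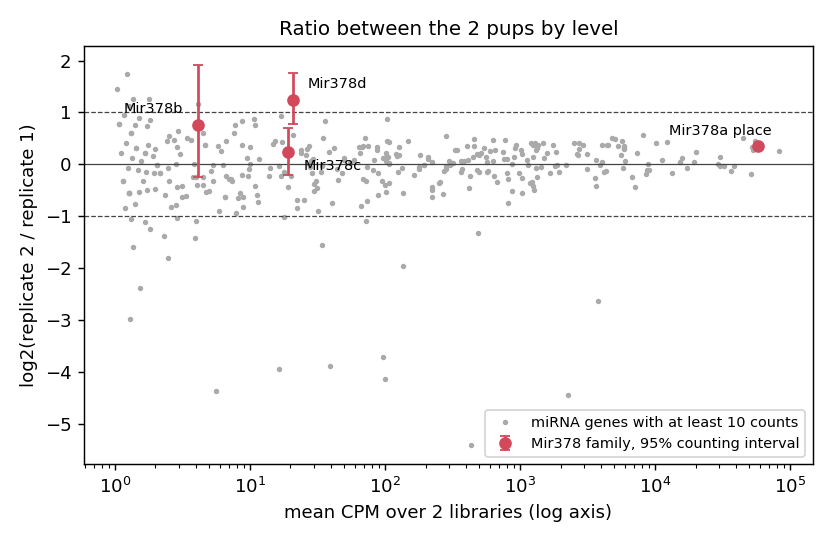
Each grey point is a miRNA gene with at least 10 counts, by mean CPM (log axis) and log2 ratio of replicate 2 over replicate 1. Red points are the family with 95% counting intervals, and dashed lines mark 2-fold. Mir378d lies above the upper line at 1.25, and the other 3 members lie between 0 and that line.

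Relative to the Mir378a place within the same library, where scaling cancels, Mir378c was nearly level between the pups and Mir378d was not. Mir378c had 345 counts per 1000000 counts at the Mir378a place (268 to 437) in replicate 1 and 320 (261 to 389) in replicate 2, and these intervals overlapped. Mir378b had 60.0 (31.0 to 105) and 81.6 (53.3 to 120), which overlapped as well. Mir378d had 245 (181 to 324) and 458 (387 to 539), and these intervals did not overlap. The difference of Mir378d between the libraries was thus beyond counting error also against its own family, in 1 pup against 1 pup. How many of the 374 genes differ beyond counting error was not computed, so this is not read as particular to Mir378d. Whether reads of the abundant member reached the rows of the others through sequencing errors or trimmed ends was not tested, since the tables give counts per gene and not per base.

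**Figure D5:**
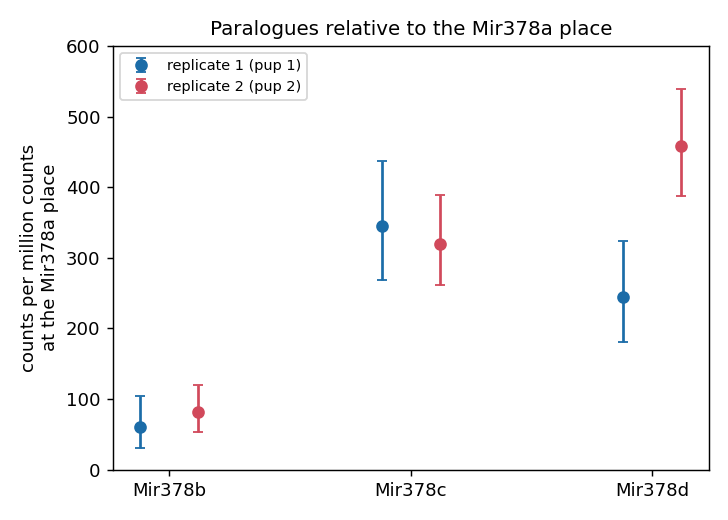
Points are counts of Mir378b, Mir378c and Mir378d per 1000000 counts at the Mir378a place in the same library, with 95% counting intervals. The intervals of the 2 pups overlap for Mir378b and Mir378c and do not for Mir378d (245 and 458).

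As a setting for these levels, 8 miRNA genes in introns of metabolic or muscle fibre genes were read from a fixed list. All 8 had at least 10 counts, 6 were higher in replicate 2, and 0 passed 2-fold in either direction, beside 50.8% higher in replicate 2 and 1.87% and 6.42% past 2-fold among all 374 genes. With 8 genes, nothing particular to the list is read from these counts. Their median log2 ratio was 0.21. The highest were Mir499, in the slow myosin gene Myh7b, at 599 ± 37.9 CPM, Mir208b, in Myh7, at 564 ± 5.05 CPM, Mir107, in the pantothenate kinase gene Pank1, at 256 ± 59.6 CPM and Mir486, in Ank1, at 70.8 ± 13.1 CPM. In reads that fit 1 place, the sum of the 8 was 1595 CPM in replicate 1 and 1592 in replicate 2. The place of Mir378a exceeded it by 33.4-fold and 39.0-fold. Multimapping reads are in neither value, so these folds may differ from those of all reads. Mir378b, Mir378c and Mir378d lay below all of these 4.

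The list of 14 miRNA genes known from brown fat and mitochondrial regulation, tissues and processes in which Mir378a has also been studied, was read in the same way. Of 13 listed genes 12 were measured with at least 10 counts, and 6 of these were higher in replicate 2. Past 2-fold were 0 in that direction and 1 in the other, Mir365-2 with 10 and 5 counts, named after its values were seen. These counts too are near the shares over all genes, 50.8% higher in replicate 2 and 1.87% and 6.42% past 2-fold. The median log2 ratio was -0.015. Mir27b was highest at 1854 ± 90.3 CPM, followed by Mir455 at 1182 ± 277, Mir494 at 633 ± 21.6 and Mir210 at 496 ± 13.3. The sum was 4675 and 4347 CPM, exceeded by the place of Mir378a by 11.4-fold and 14.3-fold. Here too multimapping reads are left out, so the folds may differ from those of all reads. The 3 brown fat markers, Mir455, Mir193b and Mir365-1, summed to 1390 CPM in replicate 1 and 995 in replicate 2, nearly all of it Mir455, with Mir365-1 at 0 and 1 counts. Mir455 lies within the collagen gene Col27a1, and it is also known from cartilage. The cartilage marker Mir140 was lower in replicate 2 as well, at 6539 and 966 CPM. The log2 ratio was -0.35 for Mir455, -0.41 for Mir193b and -2.63 for Mir140. The part of brown fat or cartilage in the values of the family was not tested.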

How the data were processed

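The authors deposited, per library, raw read counts per miRNA gene on build mm10 with annotation M4, per the deposited file descriptions. The aligner and counting program are not given in the sources used here. The tables have 3 unnamed columns of counts. The first equalled the sum of the others in every gene, and from layout and totals these were read as own-strand and opposite-strand counts. The 4 leading lines of reads outside genes were left out of library sizes.

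Identifiers of 1894 of 1973 rows matched GENCODE M21, which gave names and places. CPM used own-strand totals. Log2 ratios were scaled with TMM (edgeR 4.0.16 under R 4.3.3, with factors of 1.05 and 0.955) after adding 0.5 to each count, over genes with at least 10 counts. Intervals are exact Clopper-Pearson at 95% (scipy 1.17.1). Structures are from RNAfold 2.7.2. The ratio steps were tested on simulated data. No p-value was computed, because there was 1 group.

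The named genes were the members, their nearest neighbours by level and by ratio, other rows with at least 100 opposite-strand CPM, and 2 gene lists with up to 4 genes each given with values. Members and lists were chosen with earlier results of these data known. Alternatives were other denominators, count columns, scalings (DESeq2 1.42.0 size factors, total counts), minimums and added counts.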

Additional observations from a re-analysis of the deposited data

How the results depend on the processing

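With 1 group, samples could not be paired across groups. Across 53 alternative values, 42 stayed within the spread or interval of the reported value and 11 moved. Some of the 42 could not move. These are levels and shares from either library alone, and the strand share of the Gm25301 row, 100% on a strand chosen by its counts. Counting opposite-strand reads in the denominator and counting both strands gave equal levels and shares, yet stand as separate alternatives. The number 42 is thus not read as a measure of stability. No alternative changed the sign of a member's log2 ratio, and levels, shares and gene numbers have no sign to change. Over all reads, the mean level was 30022 CPM for the Mir378a place, 2.15 for Mir378b and 9.96 for Mir378c, and the family share was 3.00%, because the denominator grows. Counting opposite-strand reads in the denominator, or both strands throughout, gave Mir378c 17.1 CPM. Total-count scaling lowered every log2 ratio by 0.13 and gave 0.22 for the Mir378a place. Genes past 2-fold higher in replicate 2 numbered 117 with a minimum of 1 count and 1 with 50, and those higher in replicate 1 numbered 98 and 12. With a minimum of 1 count the larger number was thus in replicate 2, the reverse of 7 and 24 with a minimum of 10. Either library alone gave a level of 53253 to 62069 CPM for the Mir378a place; with 2 libraries such values always lie within 1 SD. Depth limits Mir378b most, at 12 and 26 counts.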
